A study of Mus musculus with 34 samples.

Results

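Macrophages lacking Tet2 were compared with macrophages lacking Dnmt3a after both had been exposed to low-density lipoprotein (LDL). The 6 libraries, 3 labelled Tet2KO with LDL and 3 labelled Dnmt3aKO with LDL, were chosen by their column names among the 34 libraries of the series. RNA was sequenced from bone marrow-derived macrophages, which arise when mouse marrow is cultured with the macrophage growth factor M-CSF. The mice were 10 to 14 weeks old, and all groups carried Vav-Cre, a recombinase active in blood-forming cells and their progeny, together with Tet2fl/fl (Tet2KO), Dnmt3afl/fl (Dnmt3aKO) or neither floxed gene (WT). The fit also drew its spread from the WT libraries with vehicle and from 6 libraries of a further genotype, Jak2VF, which entered no comparison here. Cells had 6 days of M-CSF at 10 ng/ml, a rest of 24 h, and then 24 h of LDL at 200 mg/dL or of vehicle. The same genotypes with vehicle and the WT libraries with LDL, 3 of each, served to place the differences, and whether each library came from its own animal is not stated. P-values then measure only the spread between these libraries, which may be technical.

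DNMT3A adds methyl groups to cytosines in DNA, chiefly at CG dinucleotides, and TET2 oxidises methylated cytosine, a step on the way to its removal. Both genes are frequently mutated in clonal hematopoiesis, in which blood cells that descend from one mutated stem cell expand, and macrophages of that origin take up lipoproteins in the artery wall. Macrophages bind modified LDL through scavenger receptors such as CD36, and LDL cholesterol reaches the cell through the LDL receptor and the lysosome. No DNA methylation was measured in these libraries.

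Total counts were 36338250, 33716057 and 26635763 in the Tet2KO libraries with LDL, against 24543643, 35787332 and 36970761 in the Dnmt3aKO libraries with LDL. Levels are given as CPM, the usual unit of counts scaled to sequencing depth, here to the TMM-scaled library total, and differences as log2 fold changes of Tet2KO over Dnmt3aKO with their standard error (SE). Markers of macrophages were abundant in all 6 libraries, and the summed level of 13 such genes was 38350, 29590 and 31650 CPM in Tet2KO, against 37630, 40720 and 38230 CPM in Dnmt3aKO. Tet2, whose whole-gene count includes exons outside any deletion and so does not check the label, had 19.3, 40.4 and 21.4 CPM in the Tet2KO libraries, against 39.2, 35.4 and 42.4 CPM in the Dnmt3aKO libraries, and 15.7, 30.2 and 14.98 CPM in WT with LDL. The Tet2 difference of -0.53 ± 0.29 did not pass the test (edgeR, adjusted p = 0.3). It was -0.94 with an adjusted p of 0.0387 once the second Tet2KO library was left out, and it did not pass in the other 16 settings recomputed. Against WT with LDL, Tet2 differed by 0.41 ± 0.30 in Tet2KO (edgeR, adjusted p = 0.622). In Dnmt3aKO it was higher than in WT by 0.94 ± 0.30 (adjusted p = 0.035). Dnmt3a had 37.8, 55.7 and 51.9 CPM in the Tet2KO libraries, against 29.1, 27.6 and 30.4 CPM in the Dnmt3aKO libraries, and 39.4, 54.8 and 51.97 CPM in WT with LDL, and was higher in Tet2KO by 0.74 ± 0.15 (adjusted p = 0.00191). Ddx3y, a gene of the Y chromosome that is not a member of the comparison, had 66.1, 115 and 56.3 CPM in Tet2KO and 111, 114 and 126 CPM in Dnmt3aKO. The third Tet2KO library held 4.26 CPM of Gfap, an astrocyte gene, against 0.174 to 0.391 CPM in the other 5. The part of these library differences in the results was not tested.

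Of 19444 genes tested, 2203 (11.3%) differed between Tet2KO and Dnmt3aKO with LDL at an adjusted p under 0.05 in the edgeR quasi-likelihood test. Among them 1223 (6.29% of genes tested) were higher and 980 (5.04%) were lower in Tet2KO, and the median log2 fold change over all genes tested was 0.025. With library totals alone in place of the TMM scaling of edgeR, 65.5% of the called genes were higher, against 55.5% here. More than 2-fold differences were called for 338 genes higher and 357 genes lower in Tet2KO. The 3 Tet2KO libraries did not overlap the 3 Dnmt3aKO libraries in 4538 genes (23.3%), among them 2138 of the called genes. When the spread was estimated from the 6 libraries alone, in place of all 24 libraries of the main set, 958 genes were called, 436 higher and 522 lower, and 943 of these were among the 2203. The libraries of a group were not equally alike. The median SD of log2 CPM was 0.266 in Tet2KO and 0.133 in Dnmt3aKO with LDL, and 0.134 and 0.11 with vehicle. The pooled fit does not model this, and its part in the counts was not tested. Without the third Tet2KO library 1606 genes were called, and without the second 3036. Counts for gene lists are given over the members tested, 652 of 716 listed genes in all, and many list counts of 1 or 2 moved by at least 1 when a single library was left out.

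**Figure D1:**
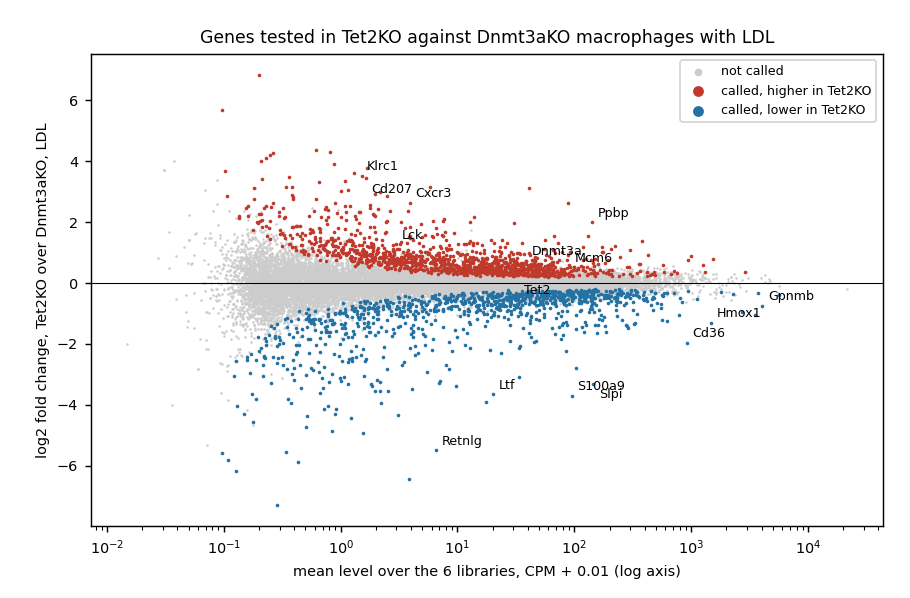
Each point is 1 of 19444 genes tested, with its mean level over the 6 libraries on the horizontal axis (CPM + 0.01, log axis) and the log2 fold change of Tet2KO over Dnmt3aKO with LDL on the vertical axis. Red points are the 1223 genes called higher and blue points the 980 called lower, and the labelled genes include Klrc1 at the top and Retnlg at the bottom.

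Cd36, Ltf and Lck were given with the comparison as its markers. Cd36 encodes a receptor for fatty acids and oxidised LDL (ENSMUSG00000002944, chromosome 5, 17781690 to 17888801 in GRCm38). It had 369.99, 404 and 349 CPM in the Tet2KO libraries, against 1395, 1441 and 1515 CPM in the Dnmt3aKO libraries, and 429.9, 541 and 518 CPM in WT with LDL. All 3 Tet2KO libraries lay below all WT and Dnmt3aKO libraries, and the Dnmt3aKO libraries lay far above both. The log2 fold change was -1.95 ± 0.10 (adjusted p = 1.46e-11). Ltf encodes lactoferrin, the iron-binding protein of the secondary granules of neutrophils (ENSMUSG00000032496, chromosome 9, 111019271 to 111042767). Its level was 3.16, 2.79 and 3.04 CPM in the Tet2KO libraries, against 37.04, 37.8 and 37.6 CPM in the Dnmt3aKO libraries, with 20.9, 14.5 and 19.7 CPM in WT with LDL. The 3 genotypes did not overlap, with WT in between, and the log2 fold change was -3.64 ± 0.14 (adjusted p = 9.32e-13). Lck encodes a Src-family kinase that signals from the T-cell receptor (ENSMUSG00000000409, chromosome 4, 129548344 to 129573641). It was a low-count gene at 4.95, 4.09 and 3.54 CPM in the Tet2KO libraries, against 1.63, 1.69 and 1.90 CPM in the Dnmt3aKO libraries, with 3.37, 3.09 and 3.34 CPM in WT. Tet2KO lay above Dnmt3aKO without overlap, with the WT libraries in between, and the log2 fold change was 1.27 ± 0.19 (adjusted p = 6.21e-05).

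The deleted enzymes act on CG dinucleotides, so the 250 bases before the RefSeq start of these 3 genes are shown 5′ to 3′ on the strand of the gene, in lower case with each CG in capitals (RefSeq, GRCm38.p6). They lie at chr5:17835897-17836146 on the minus strand for Cd36, chr9:111019042-111019291 on the plus strand for Ltf, and chr4:129573642-129573891 on the minus strand for Lck, which has 2 such starts and is shown at 1 of them.
Cd36: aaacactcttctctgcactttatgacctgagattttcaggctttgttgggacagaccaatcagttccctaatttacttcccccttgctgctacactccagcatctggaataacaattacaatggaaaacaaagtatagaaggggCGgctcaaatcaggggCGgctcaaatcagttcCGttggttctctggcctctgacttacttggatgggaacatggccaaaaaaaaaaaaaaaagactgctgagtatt
Ltf: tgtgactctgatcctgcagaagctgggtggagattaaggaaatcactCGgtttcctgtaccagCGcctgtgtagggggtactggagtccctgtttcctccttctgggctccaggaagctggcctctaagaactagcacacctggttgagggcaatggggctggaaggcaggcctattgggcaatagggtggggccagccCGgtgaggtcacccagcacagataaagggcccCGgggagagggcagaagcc
Lck: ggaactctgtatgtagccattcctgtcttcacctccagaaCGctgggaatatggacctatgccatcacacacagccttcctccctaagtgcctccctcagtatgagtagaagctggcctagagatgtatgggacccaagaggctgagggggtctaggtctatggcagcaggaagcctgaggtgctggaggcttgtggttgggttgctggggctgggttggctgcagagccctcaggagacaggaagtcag
These windows hold 3, 4 and 1 CG dinucleotides for Cd36, Ltf and Lck. The Cd36 window lies well inside the gene span given above, so its start is not the 5′ end of the annotated gene. Of 32851 mouse RefSeq windows of the same length 92.1% hold at least 1 CG and the median is 6, and a count as low as that of Cd36, Ltf and Lck occurs in 37.8%, 44.4% and 18.8% of them. A CG reads the same on both strands, so 1 strand holds every site. The counts describe these letters and carry no information on methylation in the cells.

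Genes for proteins of neutrophil granules and of the neutrophil surface were lower in Tet2KO. Of 22 markers of neutrophils and granules 18 were lower in Tet2KO and none was higher, and the median over the list was -2.46 against 0.025 over all genes. S100a9, a subunit of the calcium-binding protein calprotectin, had 16.4, 13.3 and 10.99 CPM in the Tet2KO libraries, against 172, 188 and 169.6 CPM in the Dnmt3aKO libraries. The groups did not overlap, and S100a9 differed by -3.70 ± 0.20 (adjusted p = 5.21e-11). Ngp, a neutrophilic granule protein of the cathelicidin family, averaged 2.17 ± 0.435 CPM in Tet2KO and 32.6 ± 3.29 CPM in Dnmt3aKO (SD, n = 3 each) and differed by -3.90 ± 0.19. Chil3, the chitinase-like protein Ym1, averaged 7.09 ± 1.18 CPM in Tet2KO and 59.9 ± 1.99 CPM in Dnmt3aKO and differed by -3.07 ± 0.14. Cxcr2, the receptor that draws neutrophils to CXC chemokines, averaged 1.37 ± 0.395 CPM in Tet2KO and 12.8 ± 1.44 CPM in Dnmt3aKO and differed by -3.23 ± 0.19. None of these 4 genes overlapped between the groups, as was so for 2138 of the 2203 called genes and 23.3% of genes tested.

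The 15 largest falls, taken among called genes with at least 2 CPM in the higher group and a symbol of their own, held several more neutrophil genes. Retnlg, a resistin-like secreted protein, led them with 0.405, 0.261 and 0.152 CPM in the Tet2KO libraries, against 10.95, 14.99 and 12.4 CPM in the Dnmt3aKO libraries and a difference of -5.49 ± 0.32 (adjusted p = 1.42e-10). Cd177, a glycoprotein of the neutrophil surface, averaged 0.291 ± 0.0786 CPM in Tet2KO and 5.83 ± 0.799 CPM in Dnmt3aKO and Olfm4, a glycoprotein of specific granules, 0.0959 ± 0.0599 CPM in Tet2KO and 3.004 ± 0.442 CPM in Dnmt3aKO. Padi4, which converts arginine to citrulline in histones as neutrophils release chromatin, averaged 1.73 ± 0.349 CPM in Tet2KO and 17.8 ± 1.27 CPM in Dnmt3aKO. Slpi, an inhibitor of neutrophil proteases, reached higher levels, 34.6, 21.9 and 23.3 CPM in the Tet2KO libraries, against 238, 274 and 283 CPM in the Dnmt3aKO libraries, and differed by -3.31 ± 0.21. Stfa1 and Stfa2l1, cysteine protease inhibitors of a family of near-identical copies, were also lower and differed by -3.32 ± 0.42 and -3.54 ± 0.30, and reads of such copies may have been shared between them. Apoc1, Tnfsf4 (the ligand of OX40), C2 (a complement protease), Nrap and Asprv1 completed the 15 with Ltf, Ngp and S100a9. Tnfsf4 had 0.666, 0.726 and 0.646 CPM in the Tet2KO libraries, against 6.06, 7.89 and 8.66 CPM in the Dnmt3aKO libraries, and unlike the granule genes its WT level of 0.601 ± 0.144 CPM (SD, n = 3) was close to that of Tet2KO.

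The summed level of the 22 neutrophil and granule markers was 347, 341 and 321 CPM in Tet2KO, against 1046, 1119 and 1060 CPM in Dnmt3aKO and 480, 401 and 448 CPM in WT with LDL. Their defining members were uneven. Ly6g, the surface marker by which mouse neutrophils are usually recognised, was near 0 in both genotypes at 0.0857 CPM in Tet2KO and 0.136 CPM in Dnmt3aKO, while Elane, a primary granule protease, averaged 0.289 ± 0.0524 CPM in Tet2KO and 1.45 ± 0.395 CPM in Dnmt3aKO. Mmp9, which macrophages also make, averaged 105 ± 5.30 CPM in Tet2KO and 106 ± 9.54 CPM in Dnmt3aKO and was not called. In bulk RNA, fewer cells of a type and less RNA per cell cannot be told apart, and the part of neutrophils or their precursors in these differences was not tested.

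Some monocyte genes were lower in Tet2KO as well. Of 13 monocyte markers 6 were lower, none was higher and 7 did not pass, with a median of -0.61, and their summed level was 3126, 4829 and 4049 CPM in Tet2KO, against 7301, 6810 and 7240 CPM in Dnmt3aKO. Ly6c2, the surface antigen of classical monocytes, had 7.21, 5.89 and 7.07 CPM in the Tet2KO libraries, against 26.4, 36.6 and 30.3 CPM in the Dnmt3aKO libraries, and differed by -2.21 ± 0.19 (adjusted p = 4.74e-08). Hp, the haemoglobin-binding haptoglobin, averaged 37.9 ± 11.6 CPM in Tet2KO and 123 ± 10.3 CPM in Dnmt3aKO. Fn1, fibronectin, averaged 2298 ± 614 CPM in Tet2KO and 4726 ± 281 CPM in Dnmt3aKO and differed by -1.04 ± 0.21 (adjusted p = 0.00193). None of the 3 overlapped between the genotypes, as was so for 2138 of the 2203 called genes. Ly6c2 has close copies in the genome, so its counts may include reads of them. The macrophage marker list itself was mixed, with 1 of 13 genes higher and 3 lower. Adgre1, the surface protein F4/80, was the higher one, at 843 ± 16.6 CPM in Tet2KO and 674 ± 38.9 CPM in Dnmt3aKO (log2 fold change 0.32 ± 0.07, adjusted p = 0.00177, and 0.157 with only the 6 libraries). The 3 lower macrophage genes numbered 1 without the third Tet2KO library, and likewise without any one Dnmt3aKO library.

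**Figure D2:**
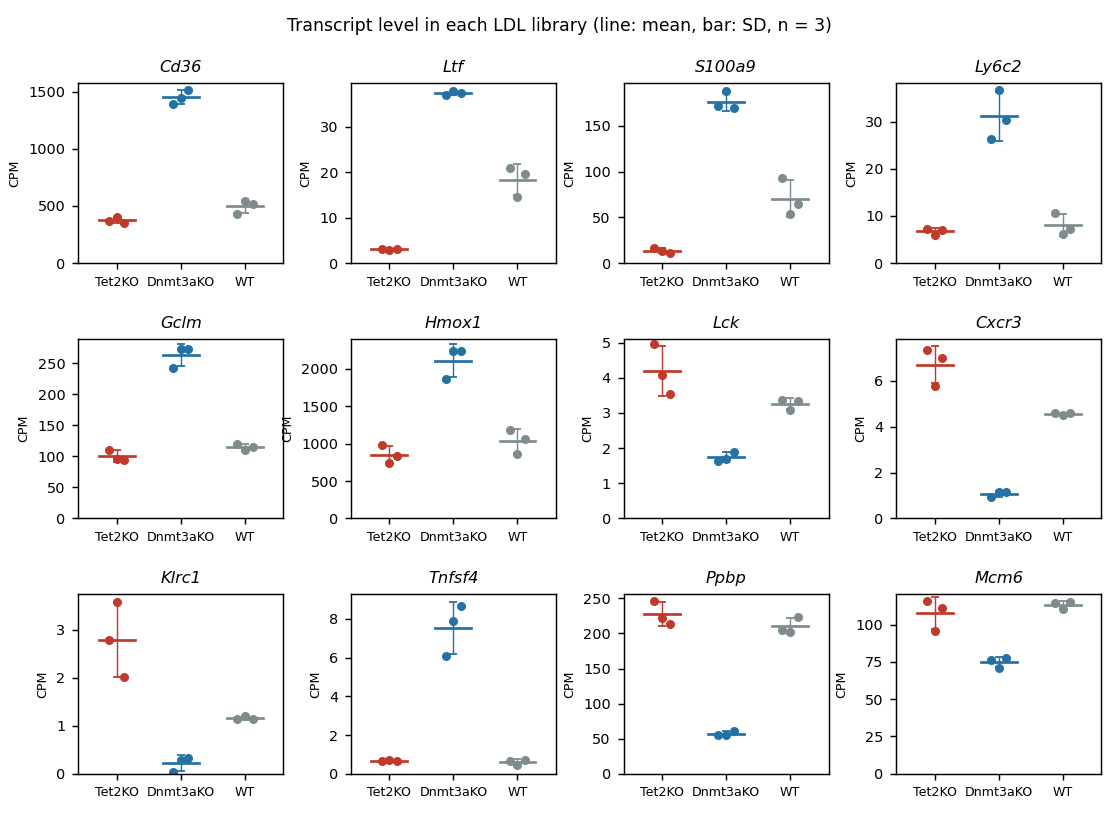
Levels of 12 genes in CPM on a linear axis from 0, 1 panel per gene and 1 point per library, with Tet2KO left of Dnmt3aKO and WT last, all with LDL (horizontal line, mean; error bar, SD, n = 3). S100a9, Ltf and Cd36 are lower in Tet2KO than in Dnmt3aKO, while Klrc1, Cxcr3 and Ppbp are higher.

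Many natural killer (NK) and T-cell transcripts were higher in Tet2KO. Of 22 T and NK cell markers 13 were higher and 1 was lower, with a median log2 fold change of 1.21. Klrc1, the NKG2A subunit of an inhibitory NK receptor, had 2.78, 3.57 and 2.02 CPM in the Tet2KO libraries, against 0.0418, 0.291 and 0.335 CPM in the Dnmt3aKO libraries. It led the 15 largest rises chosen by the same rule, with 3.53 ± 0.35 (adjusted p = 3.13e-07), at a level of a few CPM or less. Its partner Klrd1 (CD94) averaged 4.39 ± 0.806 CPM in Tet2KO and 0.585 ± 0.252 CPM in Dnmt3aKO, Klrk1 (the activating receptor NKG2D) 3.14 ± 0.801 CPM in Tet2KO and 0.670 ± 0.000909 CPM in Dnmt3aKO and Klrb1c (NK1.1) 3.51 ± 0.848 CPM in Tet2KO and 0.629 ± 0.221 CPM in Dnmt3aKO. Ncr1, the NK receptor NKp46, averaged 1.85 ± 0.689 CPM in Tet2KO and 0.349 ± 0.197 CPM in Dnmt3aKO and Nkg7, a protein of cytotoxic granules, 2.44 ± 0.503 CPM in Tet2KO and 0.465 ± 0.224 CPM in Dnmt3aKO. Trbc1, a constant segment of the T-cell receptor beta chain, averaged 3.02 ± 1.58 CPM in Tet2KO and 0.512 ± 0.149 CPM in Dnmt3aKO, and Tcf7, a transcription factor of T-cell and innate lymphoid development, 9.96 ± 1.16 CPM in Tet2KO and 3.29 ± 0.234 CPM in Dnmt3aKO with a difference of 1.61 ± 0.12 (adjusted p = 1.01e-08). None of these 8 genes overlapped between the genotypes, which was required of those among the 15 largest rises. The same held for 2138 of the 2203 called genes. The Klr genes and the granzymes are families of similar sequence, and the sharing of reads among copies is not known here.

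The other large rises included a chemokine receptor, a lectin, granule proteins and a cytokine. Cxcr3, the receptor for the interferon-induced chemokines CXCL9 and CXCL10, had 7.32, 5.78 and 6.996 CPM in the Tet2KO libraries, against 0.920, 1.13 and 1.15 CPM in the Dnmt3aKO libraries, and differed by 2.63 ± 0.16 (adjusted p = 3.95e-10). Cd207, the Langerhans cell lectin langerin, averaged 2.97 ± 0.358 CPM in Tet2KO and 0.283 ± 0.126 CPM in Dnmt3aKO and differed by 3.45 ± 0.27. Eps8l1, an actin regulator, averaged 3.86 ± 0.353 CPM in Tet2KO and 0.482 ± 0.0560 CPM in Dnmt3aKO and had 6.37 ± 0.835 CPM in WT, above Tet2KO. Gzmd, a granzyme, had 12.2, 7.98 and 11.3 CPM in the Tet2KO libraries, against 1.76, 0.931 and 0.922 CPM in the Dnmt3aKO libraries. The alarmin Il33 averaged 4.39 ± 0.372 CPM in Tet2KO and 0.861 ± 0.175 CPM in Dnmt3aKO, Cst7 (cystatin F, a regulator of granule proteases) 6.34 ± 0.592 CPM in Tet2KO and 1.23 ± 0.221 CPM in Dnmt3aKO and Sh2d1b1 (the adaptor EAT-2 of NK receptors) 3.12 ± 0.593 CPM in Tet2KO and 0.636 ± 0.108 CPM in Dnmt3aKO. Apol7e and the NK receptor gene Klri2 completed the 15 largest rises.

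The summed T and NK marker level did not follow most of its members, since Il7r, the interleukin-7 receptor, made up much of it. The sum was 127, 127 and 99.3 CPM in Tet2KO, against 134, 151 and 151 CPM in Dnmt3aKO and 130, 120 and 111 CPM in WT with LDL. Il7r was the 1 lower member, at 49.2 ± 9.05 CPM in Tet2KO and 104 ± 9.53 CPM in Dnmt3aKO, a difference of -1.08 ± 0.12 (adjusted p = 9.14e-07). The components of the T-cell receptor complex were present at low levels, with Cd3e at 0.666 CPM in Tet2KO and 0.242 CPM in Dnmt3aKO, Cd3d at 1.27 and 0.267 CPM, and Cd3g at 1.55 and 0.31 CPM in the same order of genotypes. Gzma, a defining protease of killer cells, had 0.724, 0.261 and 0.456 CPM in the Tet2KO libraries, against 0.0418, 0.0291 and 0 CPM in the Dnmt3aKO libraries, which is 0 or nearly so in Dnmt3aKO. The part of lymphoid cells in these T and NK marker differences was not tested.

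Several genes of lipid uptake and storage were lower in Tet2KO, and the others did not pass. Of 25 targets of the lipid-sensing receptor PPAR gamma and genes of lipid storage 11 were lower and none was higher, with a median of -0.28. Beside Cd36, Lpl, the lipoprotein lipase that releases fatty acids from triglyceride, averaged 89.5 ± 15.6 CPM in Tet2KO and 232 ± 21.5 CPM in Dnmt3aKO and differed by -1.37 ± 0.17 (adjusted p = 6.88e-06). Gpnmb, a glycoprotein of lipid-laden macrophages, was among the most abundant members at 3063, 2984 and 3071 CPM in the Tet2KO libraries, against 5117, 5235 and 4924 CPM in the Dnmt3aKO libraries and differed by -0.74 ± 0.08. Cd9, a tetraspanin of the cell surface, averaged 202 ± 26.9 CPM in Tet2KO and 334 ± 30.7 CPM in Dnmt3aKO. Of 15 scavenger receptors 5 were lower and none was higher. Msr1, the class A receptor for acetylated LDL, averaged 329 ± 62.2 CPM in Tet2KO and 612 ± 51.6 CPM in Dnmt3aKO and differed by -0.90 ± 0.12 (adjusted p = 1.57e-05). Marco, a relative of Msr1, averaged 0.872 ± 0.423 CPM in Tet2KO and 3.77 ± 0.782 CPM in Dnmt3aKO. The 5 lower scavenger receptors numbered 3 without the third Tet2KO library, and also 3 without the second or the third Dnmt3aKO library.

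Cholesterol genes were called about as often as genes at large. Of 25 genes of cholesterol synthesis and uptake 1 was higher and 2 were lower, and of 16 genes of cholesterol efflux and targets of the sterol-sensing receptor LXR none was higher and 2 were lower, shares of 12% and 12.5% near the 11.3% of all genes. Sqle, which makes squalene epoxide, averaged 24.1 ± 1.63 CPM in Tet2KO and 33.3 ± 1.81 CPM in Dnmt3aKO and differed by -0.46 ± 0.08. Lipa, the lysosomal acid lipase that frees cholesterol from LDL, averaged 399 ± 34.1 CPM in Tet2KO and 630.1 ± 19.3 CPM in Dnmt3aKO and differed by -0.66 ± 0.09 (adjusted p = 1.93e-05). In the lysosome list as a whole 1 of 23 genes was higher and 5 were lower, and only 1 was lower when the spread came from the 6 libraries alone. Ctss, cathepsin S, was the higher member at 1950.1 ± 282 CPM in Tet2KO and 1135 ± 113 CPM in Dnmt3aKO (log2 fold change 0.78 ± 0.15, adjusted p = 0.00105).

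Antioxidant genes were lower in Tet2KO across most of their list. NRF2 is a transcription factor that switches on glutathione synthesis and detoxifying enzymes under oxidative stress. Of 16 NRF2 targets 12 were lower and 1 was higher, with a median of -0.64. Gclm, the modifier subunit of the first enzyme of glutathione synthesis, had 111, 95.1 and 93.6 CPM in the Tet2KO libraries, against 243, 273 and 273 CPM in the Dnmt3aKO libraries, without overlap and with 121, 111 and 115 CPM in WT. It differed by -1.40 ± 0.09 (adjusted p = 8.6e-10), and its catalytic partner Gclc by -1.10 ± 0.13 at 35.3 ± 6.82 CPM in Tet2KO and 75.7 ± 2.15 CPM in Dnmt3aKO. Hmox1, the haem oxygenase, had 976, 747 and 839 CPM in the Tet2KO libraries, against 1861, 2233 and 2237 CPM in the Dnmt3aKO libraries, and differed by -1.31 ± 0.13 (adjusted p = 3.2e-07). Cat, catalase, averaged 223 ± 2.27 CPM in Tet2KO and 409.9 ± 13.8 CPM in Dnmt3aKO and differed by -0.88 ± 0.06. The 1 higher target, named after its values were seen, was Osgin1, at 22.4 ± 3.11 CPM in Tet2KO and 15.6 ± 0.614 CPM in Dnmt3aKO with a difference of 0.53 ± 0.15 (adjusted p = 0.0245). That call was lost without the first Tet2KO library, without any one Dnmt3aKO library and with only the 6 libraries. Iron genes pointed the same way, with 5 of 13 lower and none higher. Slc40a1, the iron exporter ferroportin, averaged 32.9 ± 4.22 CPM in Tet2KO and 104 ± 16.9 CPM in Dnmt3aKO and differed by -1.66 ± 0.14. Slc11a1, the metal transporter Nramp1 of the phagosome, averaged 227 ± 16.2 CPM in Tet2KO and 456 ± 12.8 CPM in Dnmt3aKO and differed by -1.01 ± 0.09 (adjusted p = 1.05e-07).

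Inflammatory genes that passed the test were, with 1 exception, lower in Tet2KO than in Dnmt3aKO. Of 25 inflammatory cytokines and NF-kB targets 11 were lower and 1 was higher, with a median of -0.43. Il1a, an alarm cytokine, averaged 2.14 ± 0.281 CPM in Tet2KO and 9.88 ± 1.23 CPM in Dnmt3aKO and differed by -2.20 ± 0.20 (adjusted p = 9.19e-08). Csf3, the growth factor G-CSF of neutrophils, averaged 2.41 ± 0.373 CPM in Tet2KO and 7.78 ± 0.425 CPM in Dnmt3aKO, and Ptges, which makes prostaglandin E2, had 66.7, 59.99 and 63.1 CPM in the Tet2KO libraries, against 173, 165 and 174 CPM in the Dnmt3aKO libraries. The WT level was near that of Tet2KO for Il1a and Ptges, at 1.91 ± 0.104 and 60.02 ± 7.54 CPM, and below both knockouts for Csf3, at 1.18 ± 0.444 CPM. Il1rn, the interleukin-1 receptor antagonist, averaged 43.9 ± 3.79 CPM in Tet2KO and 64.01 ± 5.03 CPM in Dnmt3aKO, and 72.2 ± 7.71 CPM in WT. The 1 higher member, named after its values were seen, was Traf1, a signalling adaptor of TNF receptors, at 56.3 ± 9.15 CPM in Tet2KO and 37.6 ± 3.53 CPM in Dnmt3aKO with a difference of 0.58 ± 0.14, and its call was lost without the first Tet2KO library, without the first Dnmt3aKO library and with only the 6 libraries. Of 34 type I interferon-stimulated genes 1 was higher and 1 was lower, or 5.88% called against 11.3% of all genes.

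Extracellular proteases were also more often lower than higher in Tet2KO. Of 22 metalloproteinases and genes of the plasminogen system 8 were lower and 2 were higher, with a median of -0.27. Mmp12, the macrophage elastase, had 363, 374 and 363 CPM in the Tet2KO libraries, against 710.5, 911 and 983 CPM in the Dnmt3aKO libraries, and differed by -1.24 ± 0.13 (adjusted p = 4.28e-07). Mmp8, the neutrophil collagenase, averaged 152 ± 13.1 CPM in Tet2KO and 419 ± 31.6 CPM in Dnmt3aKO, and Serpinb2, the inhibitor PAI-2 of plasminogen activators, 69.3 ± 9.36 CPM in Tet2KO and 181 ± 21.8 CPM in Dnmt3aKO. F10, coagulation factor X, averaged 33.4 ± 5.65 CPM in Tet2KO and 121 ± 13.2 CPM in Dnmt3aKO and differed by -1.85 ± 0.20. None of the 4 overlapped between the genotypes, as was so for 2138 of the 2203 called genes. Of 16 complement genes 3 were lower and none higher. C5ar2, a receptor for the complement fragment C5a, averaged 19.9 ± 3.51 CPM in Tet2KO and 62.7 ± 2.25 CPM in Dnmt3aKO and differed by -1.65 ± 0.13 (adjusted p = 1.21e-08). Osteoclast markers were lower in 4 of 9 cases. Acp5, the acid phosphatase TRAP, averaged 19.7 ± 1.42 CPM in Tet2KO and 74.4 ± 5.56 CPM in Dnmt3aKO, and Atp6v0d2, a subunit of the proton pump, 30.3 ± 6.65 CPM in Tet2KO and 69.7 ± 6.88 CPM in Dnmt3aKO.

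Chemokine receptors changed in both directions. Of 13 receptors 5 were higher and 4 were lower, and the lower ones numbered 2 without the third Tet2KO library or without the second or the third Dnmt3aKO library. Cx3cr1, the fractalkine receptor of patrolling monocytes and resident macrophages, averaged 49.2 ± 0.949 CPM in Tet2KO and 25.2 ± 2.97 CPM in Dnmt3aKO and differed by 0.96 ± 0.08 (adjusted p = 5.46e-08). Its WT level, at 23.9 ± 2.23 CPM, lay close to that of Dnmt3aKO. Cxcr3 was a further higher receptor and Cxcr2 a lower one. Of 20 chemokines 2 were higher and 4 were lower. Ppbp, the platelet basic protein from which the CXCR2 ligand NAP-2 is cut, had 247, 222 and 214 CPM in the Tet2KO libraries, against 54.6, 55.6 and 61.6 CPM in the Dnmt3aKO libraries, and differed by 1.99 ± 0.13 (adjusted p = 1.39e-09). Among the lower ones Ccl3, a macrophage inflammatory protein, averaged 11.5 ± 1.99 CPM in Tet2KO and 19.2 ± 1.01 CPM in Dnmt3aKO and Cxcl14 8.72 ± 0.458 CPM in Tet2KO and 15.7 ± 0.813 CPM in Dnmt3aKO. Ppbp and Pf4 (platelet factor 4, 1295 ± 288 CPM in Tet2KO and 696 ± 24.1 CPM in Dnmt3aKO, log2 fold change 0.90 ± 0.19) dominate the summed level of 12 megakaryocyte and platelet markers, which was 1868, 1263 and 1523 CPM in Tet2KO, against 757, 808 and 791 CPM in Dnmt3aKO. Of those 12 markers 3 were higher, 1 was lower and the other 8 did not pass, and the part of megakaryocytes or platelets was not tested.

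Many cell-cycle genes were modestly higher in Tet2KO. Of 20 DNA replication genes 12 were higher and none was lower, with a median of 0.37, and of 21 genes of mitosis and the G2/M phase 14 were higher and none was lower, with a median of 0.44. Mcm6, a subunit of the replicative helicase, had 116, 95.9 and 111 CPM in the Tet2KO libraries, against 76.6, 70.97 and 77.5 CPM in the Dnmt3aKO libraries, and differed by 0.52 ± 0.08 (adjusted p = 0.000162), while Mcm5 averaged 58.8 ± 10.5 CPM in Tet2KO and 38.99 ± 2.99 CPM in Dnmt3aKO. Cdk1, the kinase that starts mitosis, averaged 75.8 ± 11.8 CPM in Tet2KO and 51.7 ± 1.04 CPM in Dnmt3aKO and differed by 0.55 ± 0.09. Aurka, the kinase of the mitotic spindle, averaged 32.3 ± 5.08 CPM in Tet2KO and 19.95 ± 3.18 CPM in Dnmt3aKO, and Cdc20, an activator of the anaphase-promoting complex, 39.01 ± 9.08 CPM in Tet2KO and 20.2 ± 4.56 CPM in Dnmt3aKO with a difference of 0.95 ± 0.17 (adjusted p = 0.000486). These calls rest on the pooled spread, and with only the 6 libraries 2 replication genes and 4 mitosis genes were called. Without the third Tet2KO library 6 replication and 9 mitosis genes were called, without the third Dnmt3aKO library 7 and 8, and without the second Dnmt3aKO library 8 and 8.

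Peptide loading for antigen presentation was higher in Tet2KO in a few genes. Of 14 genes of MHC class II and its activator Ciita 4 were higher and 1 was lower, with a median of 0.38. H2-DMa, a chain of the exchange factor that loads peptides on MHC class II, had 45.8, 29.6 and 30.4 CPM in the Tet2KO libraries, against 12.8, 14.1 and 12.8 CPM in the Dnmt3aKO libraries. It did not overlap and differed by 1.42 ± 0.22 (adjusted p = 8.84e-05). H2-DMb2, a partner chain, averaged 4.86 ± 0.855 CPM in Tet2KO and 2.53 ± 0.201 CPM in Dnmt3aKO, and H2-DMb1 36.7 ± 6.80 CPM in Tet2KO and 23.7 ± 1.75 CPM in Dnmt3aKO, whose call was lost without the first Tet2KO library (adjusted p = 0.0549). In WT the H2-DMa level was 38.3 ± 13.3 CPM, at that of Tet2KO.

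**Figure D3:**
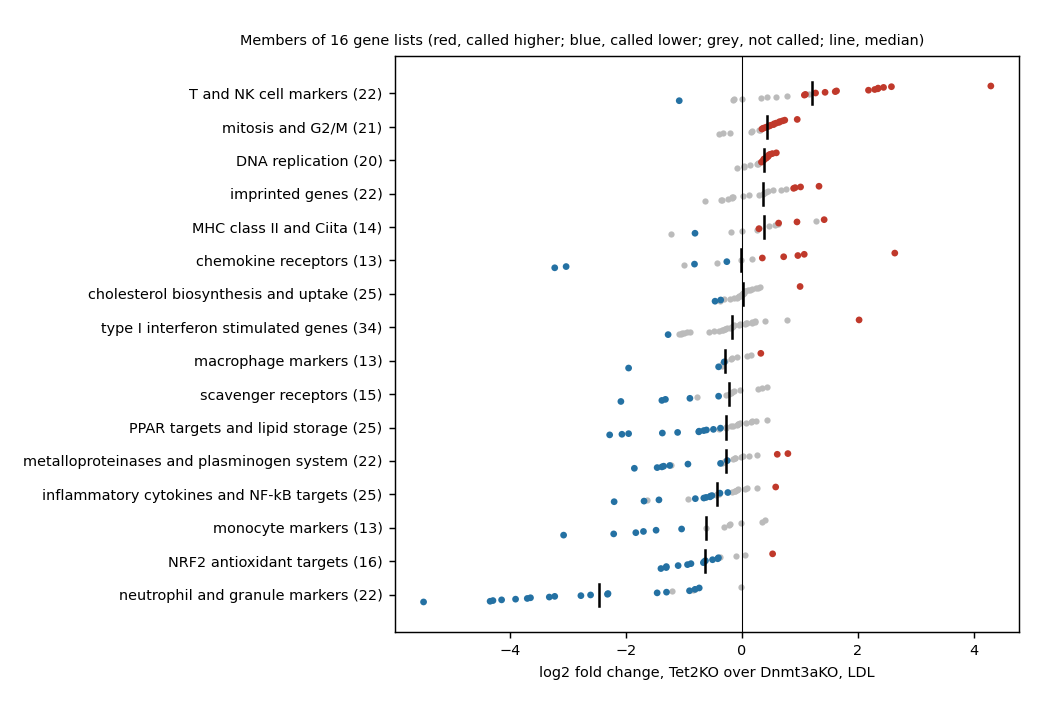
Each row is 1 of 16 gene lists with its number of tested genes, and each point a member's log2 fold change of Tet2KO over Dnmt3aKO with LDL, red where called higher, blue where called lower and grey where not called, with a line at the median. The neutrophil list has 18 of 22 members lower and the NRF2 list 12 of 16, while the T and NK list has 13 of 22 and the mitosis list 14 of 21 higher.

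The same genotypes were compared with vehicle to see which differences were also present without LDL. With vehicle 1707 genes (8.78%) were called, 794 higher and 913 lower in Tet2KO, so that 46.5% were higher, against 61.4% with library totals alone. With only those groups in the fit 3458 genes were called, against 958 with LDL. Which treatment had more calls therefore depended on the spread used, and so do the overlaps below. Of the 1223 genes higher with LDL 538 (44%) were also higher with vehicle, which is 67.8% of the vehicle list, and of the 980 genes lower with LDL 587 (59.9%) were lower with vehicle, which is 64.3% of that list. A single gene was called in opposite directions, and the vehicle log2 fold change had the same sign for 94.6% of the higher and 96.2% of the lower genes. No library is shared by the LDL and vehicle comparisons. The vehicle difference was -1.84 ± 0.10 for Cd36, -4.25 ± 0.14 for Ltf and 1.51 ± 0.18 for Lck (adjusted p = 2.76e-11, 3.59e-14 and 4.08e-06), in the same direction as with LDL. With vehicle 20 of 22 neutrophil markers were lower and 14 of 22 T and NK markers higher. Of 16 NRF2 targets 10 were lower, and of 25 PPAR and lipid storage genes 11. The neutrophil median was -3.76 with vehicle against -2.46 with LDL, but no gene of that list passed the test of the difference between treatments. The other medians with vehicle and with LDL were 1.29 and 1.21 (T and NK), -0.52 and -0.64 (NRF2), and -0.36 and -0.28 (PPAR and lipid storage). Cell-cycle counts were smaller with vehicle, at 3 of 20 replication genes and 2 of 21 mitosis genes higher, but no gene of either list passed the test of the difference between treatments.

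**Figure D4:**
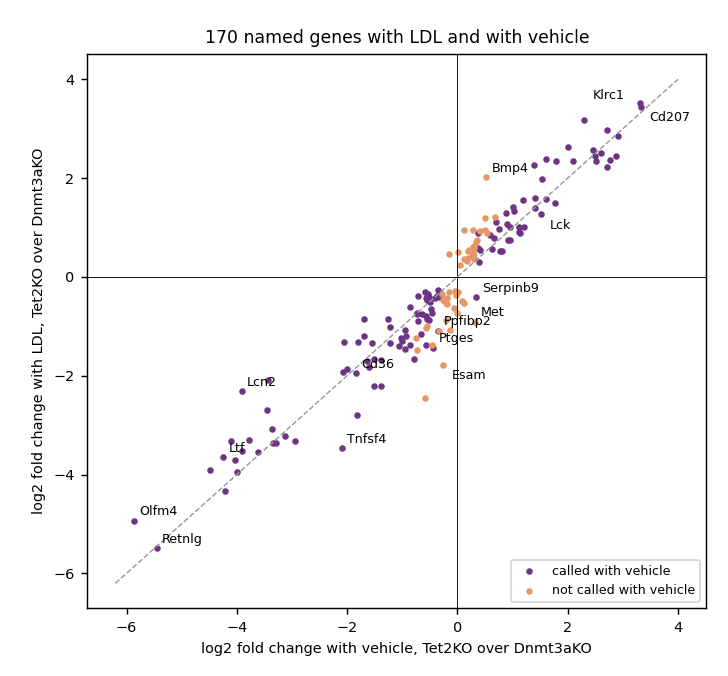
Each point is 1 of 170 named genes, with its log2 fold change of Tet2KO over Dnmt3aKO with vehicle on the horizontal axis and with LDL on the vertical axis, and purple marks genes called with vehicle. Retnlg and Klrc1 lie near the dashed line of equal change. Ltf lies above that line, with a smaller difference under LDL, and Ptges and Ppfibp2 lie below it, with a larger difference under LDL. Only Ptges and Ppfibp2 passed the test of the difference between treatments.

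A difference between treatments was itself called for 2 genes (0.0103% of 19444) in the edgeR treatment by genotype contrast, which is the Tet2KO over Dnmt3aKO difference with LDL minus that with vehicle. Ptges had 31.4, 33.9 and 32.6 CPM in Tet2KO and 46.2, 45.8 and 40.7 CPM in Dnmt3aKO with vehicle. Its contrast was -0.99 ± 0.14 (adjusted p = 0.00498), with a genotype difference of -1.43 ± 0.10 with LDL and -0.44 ± 0.10 with vehicle. Ppfibp2, a scaffold protein of the liprin family, had 25.6, 28.1 and 27.8 CPM in the Tet2KO libraries, against 56.1, 57.8 and 59.5 CPM in the Dnmt3aKO libraries with LDL. With vehicle it had 23.4, 23.9 and 23.5 CPM in Tet2KO and 29.2, 30.8 and 30.5 CPM in Dnmt3aKO, and its contrast was -0.74 ± 0.10 (adjusted p = 0.00498). In both genes the Dnmt3aKO libraries with LDL lay further above those with vehicle than was the case in Tet2KO. The next 6 genes by p did not pass, with adjusted p-values between 0.0546 and 0.0715. Among them Esam, an adhesion molecule of cell junctions, had 5.38, 4.06 and 3.95 CPM in the Tet2KO libraries, against 16.1, 14.1 and 16.2 CPM in the Dnmt3aKO libraries with LDL, and 1.81, 2.70 and 2.81 CPM in Tet2KO and 3.83, 2.45 and 2.47 CPM in Dnmt3aKO with vehicle. Met, the receptor of hepatocyte growth factor, differed by -0.91 ± 0.16 with LDL and 0.32 ± 0.16 with vehicle, and Bmp4, a secreted factor of the TGF-beta family, by 2.01 ± 0.20 and 0.52 ± 0.17. The other 3 were F11r, Serpinb9 and Siglecg. At an unadjusted p under 0.05 the contrast held 1439 genes. Without the second Tet2KO library with LDL 13 genes were called, without the third Tet2KO library with vehicle 4, and otherwise 2 or 3 when 1 library was left out.

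Against WT with LDL, 537 genes (2.76%) were called in Tet2KO, 249 higher and 288 lower, and 3397 genes (17.5%) in Dnmt3aKO, 1557 higher and 1840 lower. Both comparisons use the same 3 WT libraries, so their values are given side by side only. The counts depend on single libraries. Without the second WT library they were 840 for Tet2KO and 5658 for Dnmt3aKO. The Dnmt3aKO count was 1966 without the first WT library, 2032 without the third, 2150 without the second Dnmt3aKO library and 1838 without the third. With only the groups compared in the fit they were 39 and 1287. The Tet2KO count was 288 without the 2 libraries that held brain transcripts, the third of Tet2KO and the third of WT.

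Granule genes lay on either side of WT. Ltf differed from WT by -2.61 ± 0.14 in Tet2KO and by 1.03 ± 0.12 in Dnmt3aKO (adjusted p = 8.53e-11 and 5.77e-06), and S100a9 by -2.38 ± 0.19 and 1.32 ± 0.18. In the neutrophil list 1 of 22 markers was higher and 10 were lower in Tet2KO than in WT, while 18 were higher and none lower in Dnmt3aKO than in WT. Lymphoid genes did so too, with 4 of 22 T and NK markers higher and none lower in Tet2KO, and 2 higher and 8 lower in Dnmt3aKO. Klrc1 differed from WT by 1.26 ± 0.28 in Tet2KO and -2.26 ± 0.37 in Dnmt3aKO. WT lay between the knockouts for the members named.

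In other lists the calls against WT were more numerous in Dnmt3aKO or about as many in both knockouts. Over all genes tested, too, more were called in Dnmt3aKO (17.5%) than in Tet2KO (2.76%), so larger counts in Dnmt3aKO are not particular to these lists. Macrophage markers, for example, had 4 of 13 lower in Tet2KO, and 2 higher and 3 lower in Dnmt3aKO. Of 16 NRF2 targets 1 was higher in Tet2KO and 11 were higher in Dnmt3aKO, with no gene lower in either. Gclm differed from WT by -0.21 ± 0.09 in Tet2KO (adjusted p = 0.336) and by 1.19 ± 0.09 in Dnmt3aKO (adjusted p = 1.06e-08). Cd36 differed by -0.41 ± 0.09 in Tet2KO and 1.55 ± 0.10 in Dnmt3aKO (adjusted p = 0.0175 and 4.66e-10). No replication or mitosis gene was called in Tet2KO against WT, while 14 of 20 and 13 of 21 were lower in Dnmt3aKO. Ppbp differed by 0.11 ± 0.13 in Tet2KO and -1.88 ± 0.13 in Dnmt3aKO. Of 25 inflammatory genes 6 were higher and 1 lower in Tet2KO, and 16 were higher in Dnmt3aKO. A few genes showed the converse. Tlr6, a partner of TLR2, differed from WT by -0.70 ± 0.07 in Tet2KO and 0.09 ± 0.07 in Dnmt3aKO, and Cx3cr1 by 1.04 ± 0.08 and 0.08 ± 0.08. Gdf3, a secreted factor of the TGF-beta family, was higher than WT in both knockouts, at 10.9 ± 1.30 CPM in Tet2KO and 16.6 ± 1.19 CPM in Dnmt3aKO against 0.859 ± 0.121 CPM in WT, by 3.65 ± 0.17 and 4.26 ± 0.17.

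**Figure D5:**
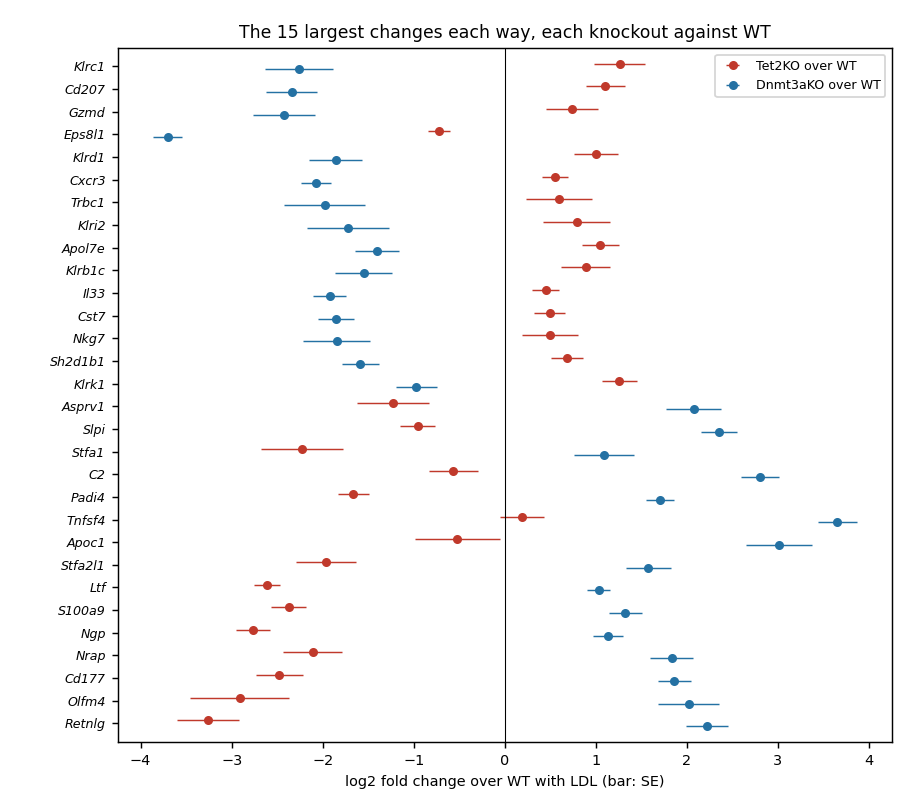
For the 15 largest rises and 15 largest falls the log2 fold change over WT with LDL is drawn for Tet2KO (red) and Dnmt3aKO (blue), with the SE of the edgeR fit as bars. Klrc1 lies above 0 in Tet2KO and below 0 in Dnmt3aKO, Ltf the other way round, and both sets of values use the same 3 WT libraries.

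A further set of libraries, named batch 1 in the labels, holds Tet2KO and WT with LDL, 2 each, but no Dnmt3aKO, so the contrast itself has no second measurement. In batch 1 83 of 15481 genes (0.536%) were called in Tet2KO against WT with LDL, 38 higher and 45 lower, and with library totals alone in place of TMM scaling the share called higher was 57.5% against 45.8%. Leaving out any 1 of these libraries gave 8 to 38 calls. For the genes named here most differences did not pass there. Ltf differed by -1.59 ± 0.70 (adjusted p = 0.418), S100a9 by -1.23 ± 0.61 (adjusted p = 0.454) and Cd36 by -1.29 ± 0.29 (adjusted p = 0.109). Among the genes that passed, C5ar2 differed by -1.60 ± 0.16, Tlr6 by -1.11 ± 0.14 and Atp6v0d2 by -1.45 ± 0.12 (adjusted p = 0.00404, 0.0139 and 0.00287). Ccdc109b, a gene within 5 Mb of Tet2, passed as well with -1.54 (adjusted p = 0.00287). Ptges, also past the threshold, differed by 1.25 ± 0.21 (adjusted p = 0.0374). The main set did not show this difference. There Ptges had 66.7, 59.99 and 63.1 CPM in Tet2KO with LDL, overlapping the 60.4, 52.3 and 67.3 CPM of WT with LDL.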

How the data were processed

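Members and gene lists were chosen with earlier results of these data known. The authors deposited tables of counts per gene (52550 genes for the main set, 25498 for batch 1). File names call them normalized, but they hold whole numbers with unequal totals and were read as unscaled counts. The genome build was mm10, per the submitters' processing notes. The aligner, counting tool, strand setting and annotation were not given in the sources used here. The labels name both ribosomal RNA depletion and poly-A selection. Names came from the tables and GENCODE M21 (GRCm38). Where IDs shared a symbol, the one with most counts was used.

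A gene needed 10 counts or more in 3 libraries (or 2 for batch 1) to be tested with the edgeR 4.0.16 quasi-likelihood test (R 4.3.3), with TMM scaling and 1 mean for each of 8 groups of the main set (24 libraries, total counts 24105237 to 43904761). Tests were two-sided with Benjamini-Hochberg adjustment over all genes. The common biological coefficient of variation was 0.137 for the main set and 0.199 for batch 1. The scripts were tested on simulated data. Lists (652 of 716 listed genes tested) were described by counts and medians, with no test of a list. Named genes were Tet2, Dnmt3a, Cd36, Ltf and Lck, the 15 largest changes each way, up to 4 called members per list with at least 3 calls, the 8 smallest p-values of the treatment by genotype contrast, and called genes within 5 Mb of Tet2 or Dnmt3a, of which some are not reported here. Alternatives were DESeq2 1.42.0, voom in limma 3.58.1, other scalings and filters, replicate numbers as a block and leaving out libraries.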

Additional observations from a re-analysis of the deposited data

Results flagged for a closer look

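Among results on Tet2KO against Dnmt3aKO, 2 genes differed between LDL and vehicle by the test of that difference itself, the edgeR treatment by genotype contrast. Ptges had a contrast of -0.99 ± 0.14 on the log2 scale (adjusted p = 0.00498), with a genotype difference of -1.43 ± 0.10 under LDL and -0.44 ± 0.10 under vehicle. In batch 1 Ptges was called higher in Tet2KO than in WT with LDL, while these groups overlapped in the main set. Ppfibp2 had a contrast of -0.74 ± 0.10 (adjusted p = 0.00498), with -1.09 ± 0.07 under LDL and -0.35 ± 0.07 under vehicle. Both genes passed in every fit that left out 1 library. With the number in the descriptions as a replicate block both had an adjusted p of 0.104, and Ppfibp2 also lost its call with no filter on low counts (0.0823) and with the title number as a replicate block among only the groups compared (0.129), and had 0.05 with only the groups compared in the fit.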

How the results depend on the processing

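The count of genes called in Tet2KO against Dnmt3aKO with LDL was 2203. It was 2518 with DESeq2 and 2084 with voom, and it was 958 with only the groups compared and 725 with the title number as a replicate block among only those groups. Leaving out 1 library gave 1500 to 3036. The title number as a replicate block gave 2413 and the description number 1536, while same-numbered libraries did not deviate together (correlations of -0.0924, -0.183 and -0.0681), so the numbers were not taken as pairs. With vehicle, 1707 genes became 3458 with only the groups compared and 3210 with the title number as a replicate block among them. The treatment by genotype contrast, with 2 genes, gave 63 with DESeq2, 6 with library totals alone, 42 with no filter, 8 with at least 50 counts, 13 with the title number as a replicate block, 0 with the description number as a replicate block, 1 with the title number as a replicate block among only the groups compared, and 2 to 13 when 1 library was left out. For Tet2KO against WT, 537 became 39 with only the groups compared, 3578 with the title number as a replicate block among them, 288 without both libraries with brain transcripts, and 361 to 840 without 1 library. For Dnmt3aKO against WT, 3397 became 1287 and 834 under those first 2 settings and 1838 to 5658 without 1 library. In batch 1, 83 became 406 with DESeq2, 136 with no filter, 31 with the title number as a replicate block, 1 with only the groups compared and 1 with that block among them, and 8 to 38 without 1 library. The cause was not tested. For the difference between Tet2KO and Dnmt3aKO with LDL, none of the 170 genes chosen by the naming rule reversed its direction in the 17 settings recomputed per gene. Most of them were chosen because they were called in this contrast, so a kept direction is no separate support. With only the groups compared 38 of 169 lost their call. With the title number as a replicate block among those groups 60 of 169 did. Genes under about 1 CPM rest on few counts, so a small difference in them was not detectable at this depth.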

Other observations

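Imprinted genes are expressed from 1 parental copy, and their control regions carry DNA methylation. Those called were higher in Tet2KO than in Dnmt3aKO. Of 22 imprinted genes 4 were higher and none was lower (18.2% called, against 11.3% of all genes), with a median of 0.37. With vehicle, where 8.78% of all genes were called, 8 were higher and none lower. Against WT with LDL none was higher and 2 were lower in Tet2KO, while 2 were higher and 8 lower in Dnmt3aKO. H19, a long noncoding RNA, averaged 38.3 ± 0.131 CPM in Tet2KO and 15.2 ± 3.91 CPM in Dnmt3aKO (SD, n = 3 each), with 74.4 ± 7.13 CPM in WT, and differed by 1.33 ± 0.17 (edgeR, adjusted p = 1.5e-05). Peg3, a zinc finger protein of the paternal copy, averaged 19.2 ± 5.73 CPM in Tet2KO and 9.53 ± 1.15 CPM in Dnmt3aKO, and Rian, a noncoding RNA of the maternal copy, 25.4 ± 6.21 CPM in Tet2KO and 13.7 ± 1.75 CPM in Dnmt3aKO. The fourth, Mirg, lies in the same transcribed domain as Rian, and its call was lost without the first Dnmt3aKO library and without the first Tet2KO library. Of 19 genes of the DNA methylation machinery 2 were higher and 2 were lower, among them Dnmt3a. Dnmt3l, a cofactor of DNMT3A, averaged 2.62 ± 0.704 CPM in Tet2KO and 6.001 ± 0.684 CPM in Dnmt3aKO and differed by -1.20 ± 0.22 (adjusted p = 0.000702), and Tdg, the glycosylase that excises oxidised methylcytosine, averaged 43.1 ± 6.86 CPM in Tet2KO and 29.2 ± 0.994 CPM in Dnmt3aKO and differed by 0.56 ± 0.09 (adjusted p = 0.000295).

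Several genes beside Tet2 differed. Of 69 genes tested within 5 Mb of Tet2 9 were higher and 6 lower in Tet2KO, or 21.7%, and of 44 within 5 Mb of Dnmt3a none was higher and 4 were lower, or 9.09%, against 11.3% of all genes. Slc9b2, a sodium and proton exchanger, averaged 11.2 ± 1.54 CPM in Tet2KO and 3.80 ± 0.183 CPM in Dnmt3aKO and differed by 1.56 ± 0.14, Npnt, an extracellular matrix protein, by 1.39 ± 0.14, and Ccdc109b, a subunit of the mitochondrial calcium channel, by -0.86 ± 0.16. Against WT with LDL, Slc9b2 differed by 0.59 in Tet2KO and -0.97 in Dnmt3aKO. The values were 0.79 and -0.60 for Npnt, and -0.97 and -0.12 for Ccdc109b. On the Y chromosome 5 of 14 genes tested (35.7%) were lower in Tet2KO. Kit, the stem cell factor receptor of progenitors and mast cells, averaged 7.85 ± 0.976 CPM in Tet2KO and 2.65 ± 0.622 CPM in Dnmt3aKO and differed by 1.58 ± 0.20 (adjusted p = 6.51e-06). Markers of further cell types also differed in part. Of 10 B-cell markers 1 was higher and 4 were lower, with sums of 104, 84.1 and 71.1 CPM in Tet2KO, against 109, 138 and 125 CPM in Dnmt3aKO, and of 15 stromal markers 2 were higher and 2 lower, with overlapping sums of 13450, 15620 and 16050 CPM against 12330, 13230 and 13940 CPM. The 4 lower B-cell markers numbered 2 without the second Dnmt3aKO library, and the 2 lower stromal markers numbered 5 without the first. Of 8 mast cell and basophil markers 3 were higher and 2 lower, and of 13 brain markers 1 was higher. Their part in the results was not tested.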
